A study of Mus musculus with 8 samples.

Results

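Blood type 2 dendritic-like cells were gated from raw UMI counts (unique molecular identifiers, each standing for a captured RNA molecule) in droplet single-cell RNA sequencing of sorted CD45+CD11b+ leukocytes. A barcode entered with at least 200 genes, at most 10% mitochondrial UMIs and at least 10 hashtag UMIs, of which at least 80% carried the blood hashtag. Members were then chosen by measured gene counts, with at least 3 UMIs of Cd209a, Flt3 and Clec10a together and at least 10 of H2-Aa, H2-Ab1 and Cd74 together. Barcodes with more than 2 UMIs of C1qa, C1qb and C1qc, any of Cd79a, or 10 or more of S100a8 and S100a9 were left out. In all, 181 barcodes met the gate, of 4810 blood barcodes past the quality filter, 10134 of either organ and 11130 in the matrix. They numbered 50 and 63 in the 2 control mice and 53 and 15 in the 2 stroke mice.

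Conventional dendritic cells arise from marrow precursors that depend on the receptor Flt3. They take up antigen, load its peptides on MHC class II molecules and present them to T cells. The type 2 branch carries CD11b and Sirpa, depends on the transcription factors Irf4 and Klf4, and reaches tissues such as the heart through the blood. Monocytes share CD11b and several of its genes, and can take on MHC class II and Cd209a, so a gate on these genes can hold cells of both origins.

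All animals were Mx1Cre:c-Mybfl/fl recipients, in which host blood-forming cells can be depleted, and received bone marrow from a control donor (Control) or from a donor that had had a stroke (Stroke), with 2 mice per group. Blood and heart cells of a mouse carried different hashtag antibodies and shared 1 library, so the hashtag gave the organ and the barcode suffix the mouse. Suffixes 1 and 3 were taken as the control and 2 and 4 as the stroke mice, after the numbers in the sample descriptions, which is assumed here and stated in no file. The sources used here do not give ages, the stroke model, the time after transplantation or the extent to which host cells remained. Values per mouse follow the order control replicate 1, control replicate 2, stroke replicate 1 and stroke replicate 2.

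The organ call rested on these antibody oligonucleotides, printed as read in the feature reference because every comparison of blood with heart depends on telling them apart.
Blood hashtag: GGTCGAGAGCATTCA
Heart hashtag: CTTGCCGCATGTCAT
Among gated blood barcodes the median share of hashtag UMIs on the blood oligonucleotide was 96.2% to 98.5% over the mice.

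The libraries held 2020 to 3303 barcodes and 10067873 to 16513840 gene UMIs each. The gated blood sums held 398900, 403892, 351999 and 127967 UMIs, with medians of 7262, 6202, 6225 and 7804 UMIs per barcode, above the medians of all blood barcodes (3168 to 5303). Stroke replicate 2 stood apart from the other mice. It had 15 gated barcodes and 973 B-like blood barcodes (2 or more Cd79a UMIs) against 134, 70 and 91, and its gated sum correlated with the others at r = 0.81 to 0.84 across genes, against 0.92 to 0.94 among the other 3 mice. Control replicate 1 was the only mouse with kgfp transgene UMIs and with the Y-linked Ddx3y in gated cells, and it had no UMI of Xist. Of the barcodes, 28 had a sequence found in more than 1 library, and none of these was gated.

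The gate genes are given as a description, since they chose the cells. Cd209a, a C-type lectin of dendritic cells at chr8:3743397-3748984 on the minus strand (GRCm38, the assembly of mm10), was present in 89.0% of gated barcodes at 1106, 884, 810 and 1219 CPM (UMIs scaled to a common total of the gated sum). Flt3, the receptor of the dendritic growth factor Flt3 ligand at chr5:147330741-147400489, was present in 69.1% at 226, 238, 270 and 234 CPM. Clec10a, a lectin that binds galactose-type sugars at chr11:70156197-70170834, was present in 60.8% at 351, 409, 233 and 195 CPM. The 3 genes thus marked the barcodes of every mouse, with Cd209a the most often detected. Gated barcodes had a median of 8 UMIs of the 3 genes together and 155 of the MHC class II genes.

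At the edge of the gate, 21 barcodes held exactly 3 UMIs of Cd209a, Flt3 and Clec10a, and another 21 that met every other limit held 2. Median MHC class II UMIs were 128 just inside and 111 just outside. Cd7 was found in 33.3% and 38.1% of these barcodes, the dendritic transcription factor Zbtb46 in 14.3% and 38.1%, and the peptidase gene Dpp4 in 57.1% and 57.1%. Of 205 blood barcodes that met the dendritic and MHC class II limits, 21 were removed for Cd79a and 3 for S100a8 and S100a9, and none for the C1q genes.

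Cd7, an immunoglobulin-family receptor of lymphoid and some dendritic cells at chr11:121036747-121039418, was the only given marker outside the gate. It was found in 37.0% of gated blood barcodes (67 of 181, median 6650 UMIs), against 1.28% of classical monocyte-like (705 barcodes, median 5746 UMIs), 0.418% of nonclassical monocyte-like (478, median 3610), 0.413% of neutrophil-like (969, median 1938) and 0.631% of B-like blood barcodes (1268, median 5831). Its level was 100, 215, 188 and 31.3 CPM. Stroke replicate 2 was the lowest, with Cd7 in 2 of its 15 barcodes. Barcodes with 3 or more UMIs of 14 lymphocyte genes had been left out of the classical gate but not of the dendritic gate. The low classical value of a lymphoid gene such as Cd7 can in part reflect that choice.

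The cell type label was checked on markers that the gate did not use, with no test, because the gated cells were chosen against these other blood cells. Zbtb46, a transcription factor of conventional dendritic cells, stood at 75.2, 49.5, 56.8 and 93.8 CPM, against at most 4.78 CPM in any mouse of either monocyte gate. Dpp4 stood at 364, 292, 344 and 313 CPM against at most 76.5, and Kmo, an enzyme of tryptophan breakdown, at 186, 136, 190 and 109 against at most 22.9. Ciita, the activator of MHC class II transcription, stood at 371, 374, 287 and 219 CPM against at most 43.1. Each of these genes was higher in every mouse of the gate than in every mouse of both monocyte gates. Itgax and Irf8 did not set the gate apart. Itgax was found in 19.3% of gated against 24.7% of nonclassical barcodes, and Irf8, a factor of dendritic development, in 27.1% against 56.2% of classical and 33.1% of nonclassical barcodes. Id2 stood at 186, 114, 108 and 305 CPM, and reached 139 CPM in nonclassical cells of stroke replicate 2. All 13 common dendritic genes had UMIs, and 12 were found in at least 5% of gated barcodes. The 26 genes of a type 2 dendritic list summed to 3956, 3526, 3162 and 4962 CPM. Classical cells had 4254, 4023, 3729 and 3878 CPM and nonclassical cells 5595, 5307, 5471 and 5291. The type 2 sum thus did not set the gate apart from monocytes.

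**Figure D1:**
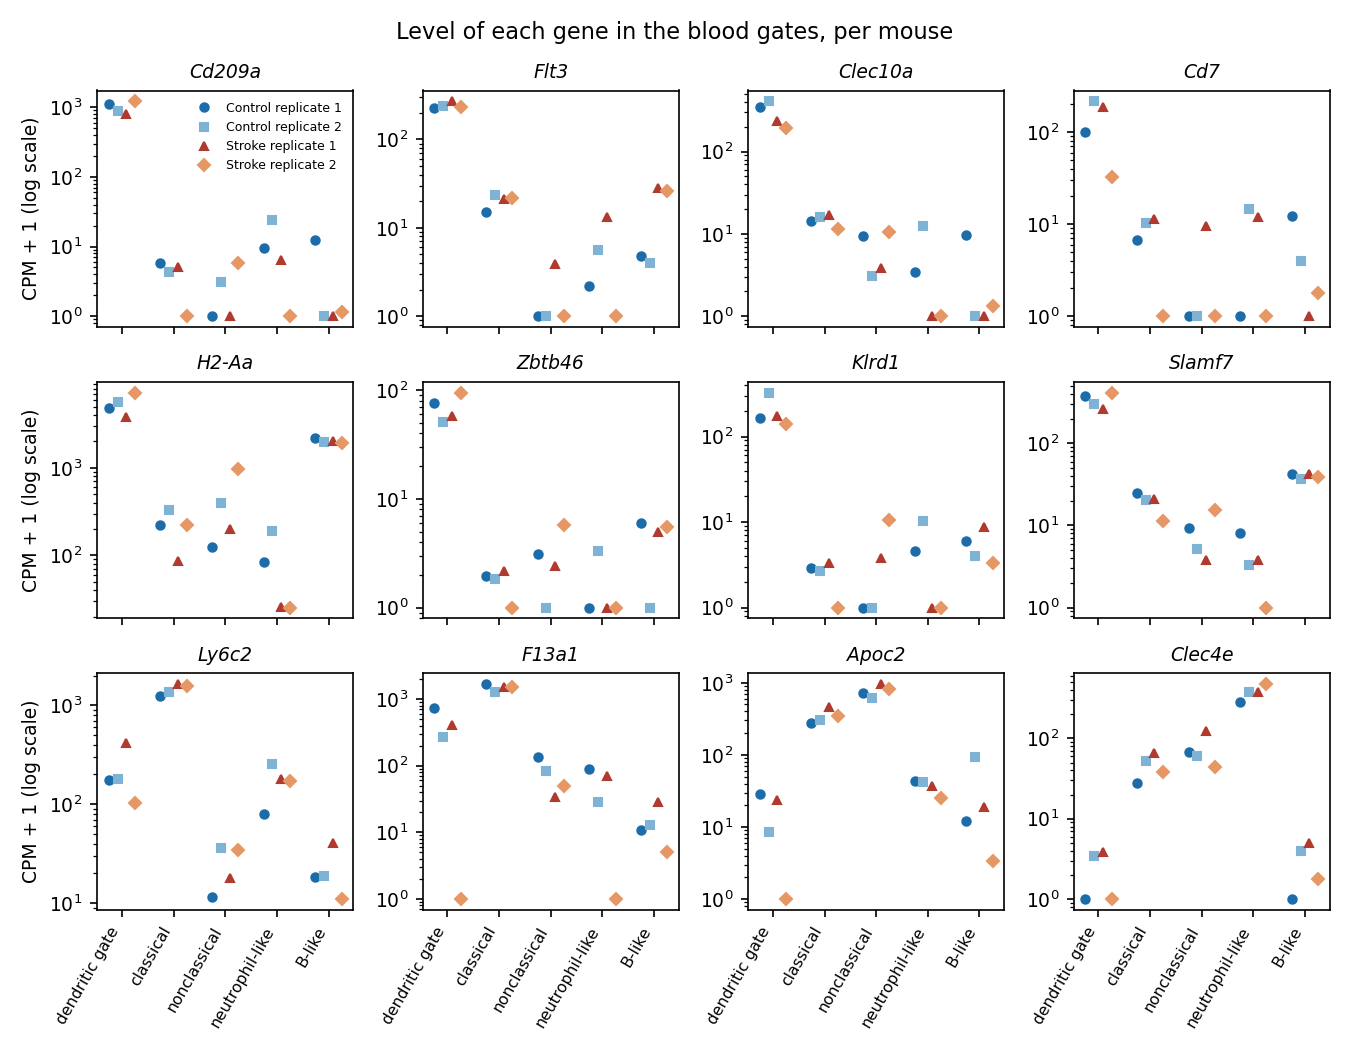
Level of 12 genes in CPM plus 1 (log axis) in 5 gates of blood barcodes, with 1 point per mouse. Cd209a, Flt3, Clec10a and H2-Aa chose the dendritic gate. Cd7, Zbtb46, Klrd1 and Slamf7 sit higher there in every mouse than in both monocyte gates. Barcodes with 3 or more lymphocyte UMIs were left out of the classical gate only. Ly6c2 and F13a1 are higher in classical, Apoc2 in nonclassical and Clec4e in neutrophil-like barcodes, and F13a1 is at 0 in the dendritic gate of stroke replicate 2.

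Of 13018 genes with UMIs in the gate, 393 were higher in its lowest mouse than in the highest mouse of either monocyte gate. The leading ones included receptors better known from natural killer cells. For these the classical gate is not an even comparison, since barcodes with 3 or more lymphocyte UMIs were left out of it but kept in the dendritic gate. Klrd1, the CD94 subunit, stood at 163, 324, 173 and 141 CPM against at most 9.57 in a monocyte gate, and was found in 50.8% of gated barcodes. Klrk1, which encodes NKG2D, stood at 118, 99.0, 111 and 62.5 CPM against at most 7.5. Slamf7, an adhesion receptor of the SLAM family, stood at 376, 297, 259 and 414 CPM against at most 23.8. Cd163, the haptoglobin-haemoglobin scavenger receptor, stood at 75.2, 54.5, 48.3 and 62.5 CPM against at most 5.01. Clec9a, a receptor for dead cells known mainly from type 1 dendritic cells and precursors, stood at 47.6, 44.6, 34.1 and 117 CPM against at most 4.78.

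H2-DMb1, a subunit of the peptide editor of MHC class II, stood at 760, 829, 770 and 766 CPM against at most 144. At the other end, Apoc2, an apolipoprotein of nonclassical monocytes, stood at 27.6, 7.43, 22.7 and 0 CPM against at least 278 in the monocyte gates. Cebpb, a transcription factor of monocytes, stood at 198, 116, 105 and 39.1 CPM against at least 645. Clec4e, the lectin Mincle, had at most 2.84 CPM against at least 26.7.

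Markers of other lineages ranged from absent to present. All 7 mast cell and basophil genes were at 0, as were Ly6g and Cxcr2 of neutrophils, Itgae of tissue type 1 dendritic cells, and Lyve1 and Timd4 of resident macrophages. The 10 natural killer genes, Klrk1 among them, summed to 160, 587, 119 and 62.5 CPM and the 9 T cell genes to 191, 7.43, 176 and 0. The 10 neutrophil genes summed to 42.6, 39.6, 54.0 and 15.6 CPM. The 13 macrophage genes, 3 of them limited by the gate, summed to 1454, 735, 926 and 547 CPM, with Mrc1 in 35.4% of gated barcodes. The 10 type 1 dendritic genes summed to 486, 483, 631 and 1141 CPM. The 9 B cell genes summed to 206, 188, 179 and 414 CPM although the gate barred Cd79a, with Ighm in 60.8% of gated barcodes. The 10 plasmacytoid dendritic genes summed to 374, 307, 315 and 391 CPM, with 4 of them in at least 5% of gated barcodes. Among them, Siglech was at 2.51, 2.48, 0 and 0 CPM. Xcr1 of type 1 dendritic cells was at 0, 12.4, 0 and 7.81 CPM. In each mouse, 1 to 3 gated barcodes held 3 or more UMIs of 14 lymphocyte genes.

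Classical monocyte genes were present in the gate and uneven between mice. The 12 genes of this list summed to 13221, 10815, 11213 and 3939 CPM. Ccr2, the receptor that draws monocytes out of the marrow, stood at 1216, 569, 744 and 750 CPM, beside a mean of 1341 in classical monocyte-like cells. Ly6c2, the classical monocyte surface antigen, stood at 175, 181, 415 and 102 CPM beside 1443. Stroke replicate 2 was lowest for the sum and for Ly6c2, and the other 3 mice lay close together in the sum.

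Within the gate, 3 mice resembled each other and stroke replicate 2 differed. Cx3cr1, the fractalkine receptor, was found in 68.0%, 69.8% and 58.5% of gated barcodes of the first 3 mice and in 0 of 15 in stroke replicate 2, where a floor of 3 barcodes allows a share with a UMI of up to 20%. F13a1, a coagulation factor subunit of monocytes, was found in 66.0%, 44.4% and 64.2% and likewise in 0 of 15. Plac8, a gene of immature myeloid cells, was found in 80%, 95.2%, 100% and 40%. Neutrophil-like barcodes held Cx3cr1 in 3.92%, F13a1 in 2.99% and Plac8 in 9.18%. For the same genes in order, classical monocyte-like barcodes had 67.4%, 93.8% and 99.6%, and nonclassical ones 82.8%, 9.41% and 81.8%. B-like barcodes had 3.79%, 2.44% and 92.8%.

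In the opposite direction, Mgl2, a lectin of tissue type 2 dendritic cells, was found in 16%, 11.1%, 3.77% and 60% of gated barcodes, beside 0.413% of neutrophil-like barcodes. Plxdc2, a plexin-domain membrane protein, was found in 24.0%, 12.7%, 15.1% and 66.7%. Dpp4 was even, at 80%, 82.5%, 77.4% and 80%, and Kmo ran from 46.0% to 67.9%. After thinning each barcode to 2000 UMIs, which left 180 barcodes, Mgl2 was found in 8.0%, 4.76%, 1.92% and 40%, and Cx3cr1 in 32.0%, 28.6%, 26.9% and 0%. The difference between stroke replicate 2 and the other mice was thus present at equal depth.

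**Figure D2:**
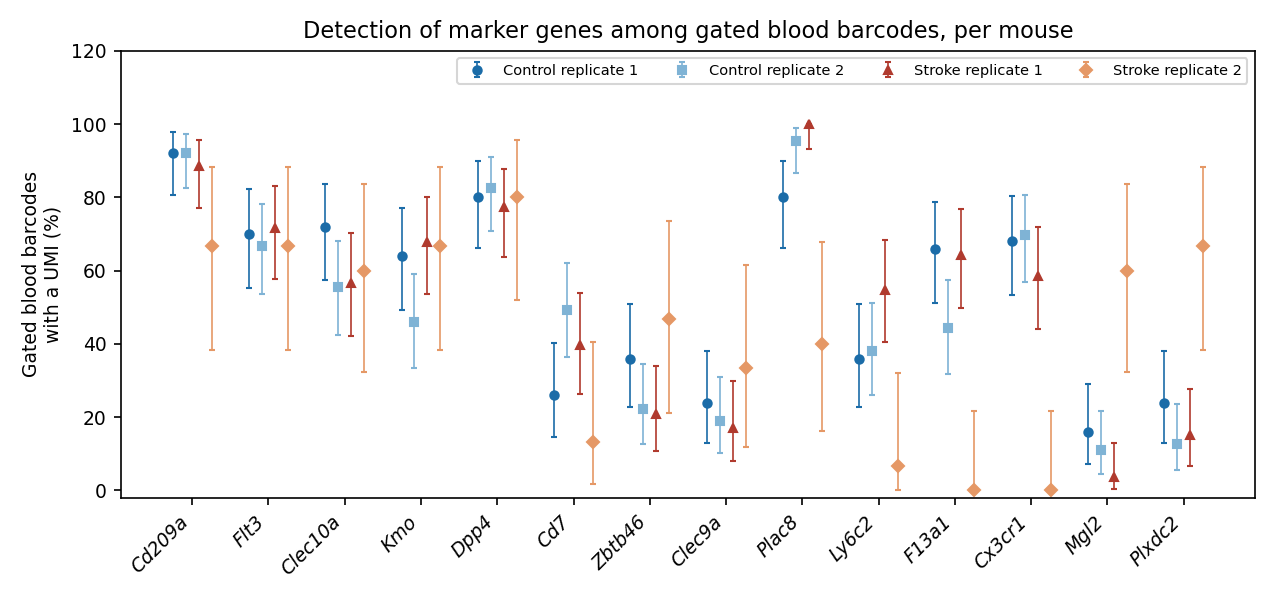
Share of gated blood barcodes with at least 1 UMI of each gene (percent, vertical axis), per mouse, with exact Clopper-Pearson 95% intervals that cover counting error only. Stroke replicate 2, with 15 barcodes, sits at 0 for F13a1 and Cx3cr1 and highest for Mgl2 (60%) and Plxdc2 (66.7%), while Dpp4 lies between 77.4% and 82.5% in all 4 mice.

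Barcodes with 2 or more Mgl2 UMIs numbered 6 of 50, 4 of 63, 0 of 53 and 9 of 15, 19 in all. Ly6c2 was found in 0 of these 19 and in 72 of the other 162. Plac8 was found in 7 of 19 against 152 of 162, Cd7 in 2 of 19 against 65, and Plxdc2 in 12 of 19 against 26. Lyz2 was found in 19 of 19 against 150 of 162. The median depth was 7942 UMIs in the 19 and 6502 in the others. In the thinned barcodes, Plac8 was found in 5 of 14 with Mgl2 and in 133 of 166 without. These shares describe cells of 4 mice, mainly of stroke replicate 2 and control replicate 1, and carry no test.

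The first comparison asked whether the share of these cells in the blood differed with the marrow donor. Gated cells made up 4.39% (95% exact interval 3.28 to 5.75) and 6.38% (4.94 to 8.09) of blood barcodes in the control mice, and 3.85% (2.90 to 5.01) and 1.15% (0.643 to 1.88) in the stroke mice. Both stroke mice were below both control mice. The means were 5.39% and 2.5%, a difference of -2.89 percentage points with a pooled SD of 1.68 within groups (n = 2 mice per group). The exact two-sided permutation test gave p = 0.333, the smallest that 2 mice against 2 allow.

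The size of this difference moved with the denominator. Over blood barcodes without Cd79a, the shares were 5.04%, 6.90%, 4.16% and 4.73%. With barcodes of 10 or more S100a8 and S100a9 UMIs also left out they were 8.85%, 8.96%, 5.91% and 5.47%. Of the gated mononuclear cells, which are the dendritic and the 2 monocyte gates, they were 13.8%, 14.9%, 9.55% and 13.5%. Stroke was below control in every mouse under each denominator (means 5.97% and 4.44%, 8.91% and 5.69%, and 14.4% and 11.5%), with exact p = 0.333 each time. In stroke replicate 2, B-like barcodes were 973 of 1309 blood barcodes, and its share was 1.15% with and 4.73% without Cd79a-positive barcodes.

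**Figure D3:**
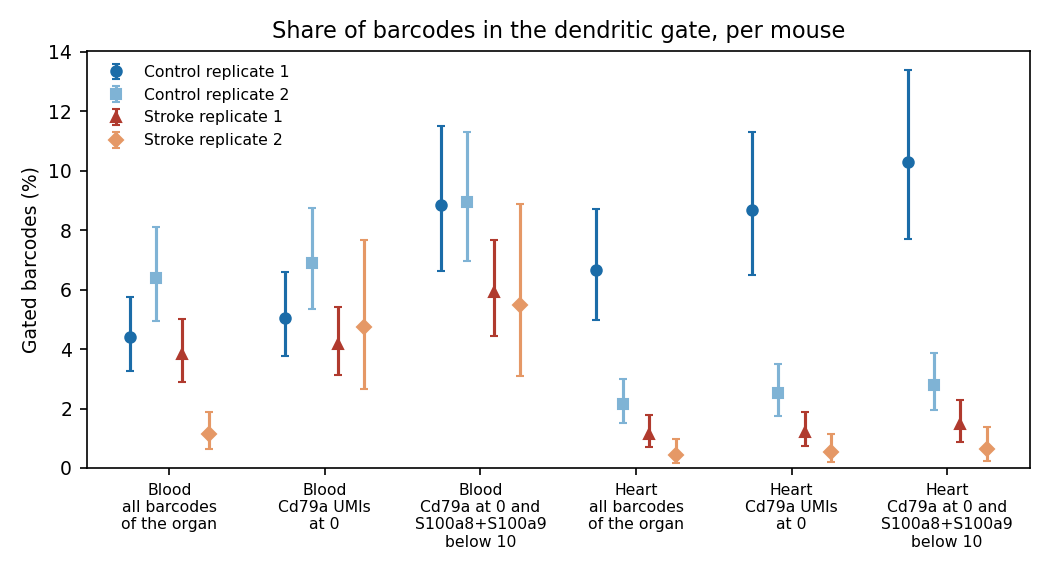
Gated barcodes as a percentage of the barcodes of each organ, under 3 denominators, with 1 point per mouse and exact Clopper-Pearson 95% intervals that cover counting error only. In blood, both stroke mice sit below both control mice under each denominator. In heart, control replicate 1 is highest (6.68% of all heart barcodes) and stroke replicate 2 lowest (0.442%).

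The same gate applied to barcodes with the heart hashtag gave 108 cells, 49, 34, 19 and 6 per mouse. They made up 6.68%, 2.16%, 1.15% and 0.442% of heart barcodes. The blood share was higher than the heart share in 3 of 4 mice and lower in control replicate 1. The mean difference of blood minus heart was 1.34 percentage points (SD 2.81, n = 4 mice), with an exact two-sided sign-flip permutation p = 0.375, where 0.125 is the smallest possible.

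The second comparison asked which genes of the gated blood cells differed between recipients of stroke and of control marrow. UMIs were summed per mouse and 5349 genes were tested with edgeR's quasi-likelihood test and Benjamini-Hochberg adjustment at 0.05. No gene passed (0%), while 106 (1.98%) had an unadjusted p under 0.05, and DESeq2 called 1. Both stroke sums were above both control sums for 908 genes (17.0%) and below them for 677 (12.7%). Whether these samples came from separate experiments is not stated, so p-values here measure the spread between these mice only.

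Type 2 dendritic regulators were tested among 21 genes of a dendritic list, and none passed. Klf4, a transcription factor of this branch, stood at 148, 149, 71.0 and 86.0 CPM. Both stroke mice were below both control mice, with a log2 fold change of stroke minus control of -1.0 (SE 0.30, edgeR adjusted p = 1.0, with 0.00973 before adjustment). In 5 of the 21 genes the stroke sums lay below the control sums without overlap, namely Cebpb, Csf2ra, Klf4, Sirpa and Tmem176b, and in none above. Over all genes tested these shares were 12.7% below and 17.0% above. The median log2 fold change of the list was -0.23, beside 8.99e-05 over all genes tested. Irf4, the other main regulator, stood at 97.8, 56.9, 54.0 and 62.5 CPM, and the groups overlapped.

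The gene with the lowest p was Ccl5, a chemokine of lymphocytes that some dendritic cells also make, at 153, 441, 2.84 and 7.81 CPM. Both control mice were far above both stroke mice, but few cells carried it: a single barcode held 91.8% of its UMIs in control replicate 1 and 60.1% in control replicate 2, with 4 barcodes positive in each. Over the summed UMIs, 239 in control and 2 in stroke, the ratio was 71.2 (counting interval 19.5 to 592), and the edgeR adjusted p was 0.332. Ccl5 no longer passed the low-count filter once barcodes with 3 or more lymphocyte UMIs were left out. It was past the threshold when any 1 mouse was left out, under DESeq2 (adjusted p = 0.00258) and without the low-count filter, with adjusted p from 6.81e-23 to 0.717 over the alternatives that gave it a value.

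The other genes among the 10 lowest p-values did not pass either. Rap1gap2, a regulator of Rap1, stood at 158, 124, 56.8 and 62.5 CPM, and Pitpnc1, a phosphatidylinositol transfer protein, at 140, 79.2, 36.9 and 15.6. Eno1, an enzyme of glycolysis, stood at 226, 295, 142 and 117 CPM. In these 3 genes the stroke mice lay below the control mice. Rbl1, a pocket protein of the cell cycle, stood at 7.52, 9.90, 45.5 and 39.1 CPM and Nucb2 at 25.1, 37.1, 79.5 and 102, with the stroke mice above. Gm10076 (248, 1198, 185 and 54.7 CPM) was high in control replicate 2 alone, and was also highest in that mouse in both monocyte gates and in B-like cells. The edgeR adjusted p of each of these genes was 1.0 after rounding.

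No gene of the other lists passed. Of 10 MHC class II presentation genes tested, Ciita was the only one without overlap, with stroke below control. Of 13 immediate early genes, 4 (Fos, Jun, Jund and Klf6) had both stroke sums above and 3 (Ier2, Klf4 and Nr4a1) both below, beside 17.0% and 12.7% of all genes tested. Of 21 type I interferon genes, Phf11b was the only one without overlap, with stroke above. The interferon list summed to 5766, 7549, 9554 and 3563 CPM, so the 2 stroke mice were the highest and the lowest. Il1b, the inflammatory cytokine, stood at 35.1, 71.8, 168 and 39.1 CPM and the groups overlapped.

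In simulated counts this design recovered 13% of 2-fold, 97% of 4-fold and 100% of 8-fold changes. The changed genes were drawn from well-counted genes only, with the same spread for every gene and no mouse set apart. Recovery for genes with few UMIs, or with a mouse like stroke replicate 2, was not simulated. Leaving out a mouse gave 5 calls without control replicate 1, 4 without control replicate 2, 180 when stroke replicate 2 was the only stroke mouse and 12 when stroke replicate 1 was, the lone mouse being assumed to vary like the other group.

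The third comparison asked how the same gated cells differed between blood and heart of a mouse. Lower in blood were 14 of 16 immediate early genes, 10 of 17 NF-kB and inflammatory genes tested, and Cd83, Cd86 and Tnfsf9 of the costimulation list. Higher in blood were Txnip and 5 of 9 classical monocyte genes tested, the latter 5 calls all being lost without control replicate 1. Of 4363 genes tested in 8 sums, blocked by mouse, edgeR called 264 (6.05%), 45 higher in blood (1.03%) and 219 lower in blood (5.02%). Of the 264, 215 moved the same way in 4 of 4 mice, and 169 had blood and heart sums that did not overlap. Over all 4363 genes tested, 395 had sums that did not overlap, so lack of overlap alone was not a call. The median log2 fold change of blood minus heart over all genes was 0.03. A gene low in blood could pass the low-count filter through its heart sums alone, so counts over tested list members are given as a description.

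Organ and the preparation of the cells went together, and these cannot be told apart here. The sources used here do not say how the heart suspension was made. Median mitochondrial shares of gated barcodes were 1.13% to 1.43% in blood and 1.25% to 1.71% in heart, and median UMIs were 6202 to 7804 and 6239 to 8205. The smallest heart sum was that of stroke replicate 2, with 6 barcodes and 36632 UMIs.

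Immediate early genes are transcribed within minutes of a stimulus, without new protein. All 16 genes of the list were tested, and 14 were lower in blood. The median log2 fold change of the list was -3.37. Fos, a subunit of the AP-1 factor, stood at 118, 154, 159 and 172 CPM in blood and 1844, 2249, 1970 and 1474 in heart. Blood and heart did not overlap, and the log2 fold change was -3.77 (SE 0.20, edgeR adjusted p = 8.76e-19). Jun, its partner, stood at 60.2, 42.1, 71.0 and 70.3 CPM against 871, 811, 478 and 1201. Egr1, a zinc-finger factor, stood at 47.6, 4.95, 0 and 15.6 CPM against 627, 767, 447 and 737.

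The nuclear receptors of the NR4A family followed the same direction. Nr4a3 had no UMI in gated blood cells of any mouse and 263, 152, 136 and 218 CPM in heart. It was at least 89.0-fold higher in heart, taking 3 UMIs over the group as the floor for blood. Nr4a2 stood at 5.01, 0, 0 and 15.6 CPM in blood and 210, 156, 335 and 273 in heart. Nr4a1 stood at 32.6, 32.2, 25.6 and 7.81 CPM against 316, 280, 335 and 573, with a log2 fold change of -3.65 (SE 0.30, edgeR adjusted p = 1.76e-13).

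Klf4 and Klf6 were the 2 list genes that did not pass. Klf4 stood at 148, 149, 71.0 and 86.0 CPM in blood and 224, 160, 95.7 and 246 in heart (log2 fold change -0.59, edgeR adjusted p = 0.245). Klf6 stood at 123, 156, 165 and 258 CPM against 167, 276, 271 and 164, and the organs overlapped.

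Dusp1, Ppp1r15a and Gadd45b were among the 12 genes with the largest changes lower in blood. Dusp1, a phosphatase of MAP kinases at chr17:26505590-26562128, stood at 17.5, 27.2, 25.6 and 54.7 CPM in blood and 806, 755, 1005 and 764 in heart. The log2 fold change was -4.99 (SE 0.27, edgeR adjusted p = 8.76e-19). Ppp1r15a, the GADD34 subunit that restores translation after stress, stood at 7.52, 14.9, 11.4 and 7.81 CPM against 232, 339, 215 and 437. Gadd45b, a stress sensor, stood at 10.0, 12.4, 8.52 and 0 CPM against 350, 527, 526 and 682. In each of these 3 genes every heart sum was above every blood sum.

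Promoters of the called genes were searched for the cyclic AMP response element TGACGTCA, the site of CREB and related factors, in the 250 bases before the RefSeq start. Windows of Dusp1 and Ppp1r15a, which hold it, are printed on the minus strand of GRCm38.p6, with the element in capitals.
Dusp1, chr17:26508572-26508651: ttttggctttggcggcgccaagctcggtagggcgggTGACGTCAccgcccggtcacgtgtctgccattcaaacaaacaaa
Ppp1r15a, chr7:45526269-45526316: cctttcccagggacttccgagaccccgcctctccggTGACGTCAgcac
The element reads the same on both strands and ends 135 bases before the RefSeq start of Dusp1 and 4 bases before that of Ppp1r15a. The span given above for Dusp1 is from GENCODE and reaches beyond this window, so its start differs there. It was not found in the window of Gadd45b. It was found in 9 of the 181 genes lower in blood that had a promoter entry (4.97%), in 3.04% of 3525 tested genes with an entry and in 1.62% of all 27025 promoters. None of 40 matched genes higher in blood held it. The AP-1 site TGANTCA also reads the same on both strands, and neither motif contains the other. It was found in 11 of 181 (6.08%), against 4.14% of tested genes and 6.87% of all promoters. These matches describe letters in a window, and binding was not measured.

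NF-kB feedback and inflammatory genes were lower in blood in 10 of 17 genes tested, with a median log2 fold change of -2.47 and none higher. Tnfaip3, the A20 deubiquitinase that shuts NF-kB signalling, stood at 17.5, 4.95, 14.2 and 7.81 CPM in blood and 348, 292, 199 and 218 in heart. Nfkbia, the inhibitor IkB-alpha, stood at 251, 265, 315 and 250 CPM against 1750, 1406, 1898 and 1884. Il1b stood at 35.1, 71.8, 168 and 39.1 CPM against 818, 1266, 1124 and 1228, with a log2 fold change of -3.91 (SE 0.24, edgeR adjusted p = 8.65e-17). Every heart sum of these genes was above every blood sum.

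Of the chemokines of this list, Cxcl2 and Ccl4 were nearly absent from the blood cells. Ccl5 and Ccl9 were tested and not called. Ccl5 stood at 153, 441, 2.84 and 7.81 CPM in blood and 72.4, 244, 0 and 0 in heart. Cxcl2, which attracts neutrophils, had 1 UMI in blood and 74 in heart over the 4 mice, a ratio of heart to blood of 115 (counting interval 20 to 4597). Ccl4, an inflammatory chemokine, had 2 UMIs in blood and 263 in heart (ratio 204, counting interval 55.9 to 1694). It did not pass the low-count filter. Tnf stood at 7.52, 7.43, 22.7 and 7.81 CPM in blood and 84.5, 87.9, 71.8 and 300 in heart and was called lower in blood. Genes of the inflammasome and NF-kB machinery were divided. Nlrp3, Nfkbid and Nfkbiz were called lower in blood, while Pycard, Casp1, Casp4 and Nfkb1 were not called.

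**Figure D4:**
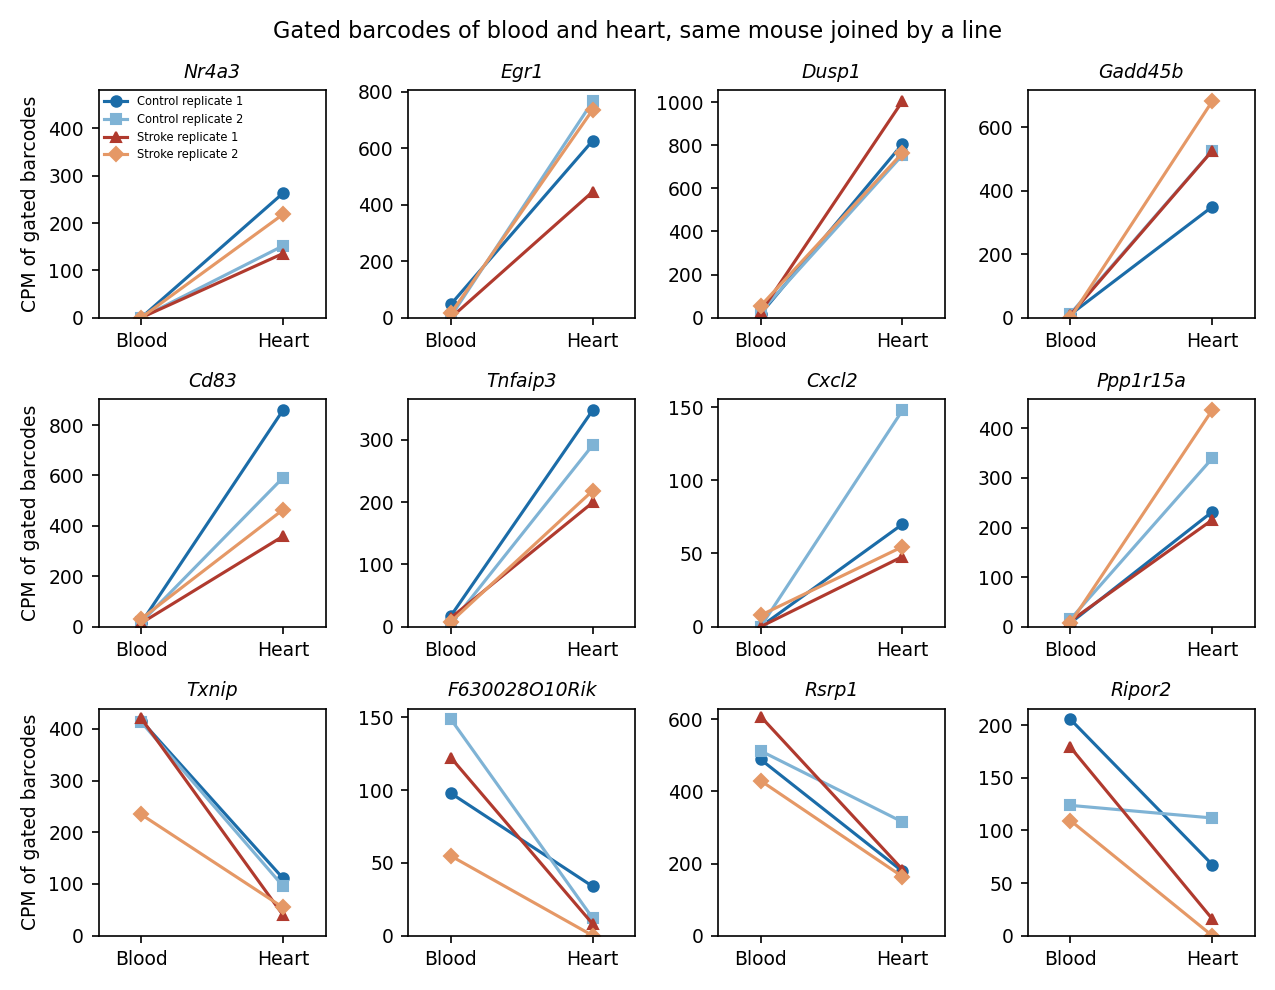
CPM of 12 genes in gated cells of blood and heart (linear axes from 0), with a line for each mouse. The upper rows show genes lower in blood, with Nr4a3 at 0 in blood in all 4 mice and Dusp1 between 17.5 and 54.7 CPM in blood and 755 and 1005 in heart. The lower row shows genes higher in blood, where Txnip lies between 234 and 420 CPM in blood and 39.9 and 111 in heart, and where the blood and heart values of Ripor2 overlap.

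Of 16 costimulation genes, 12 did not pass the low-count filter and Tgfb1 was not called. Cd83, Cd86 and Tnfsf9 were called lower in blood, with 4 to 7 UMIs of Cd83 in each blood sum, and passed the filter through their heart sums. Cd83, a surface marker of activated dendritic cells, stood at 15.0, 17.3, 14.2 and 31.3 CPM in blood and 859, 591, 359 and 464 in heart (log2 fold change -5.10, SE 0.30, edgeR adjusted p = 1.58e-17). Cd86, a ligand of CD28 on T cells, stood at 17.5, 22.3, 31.3 and 39.1 CPM against 306, 124, 295 and 109. Tnfsf9, the 4-1BB ligand, stood at 17.5, 9.90, 54.0 and 0 CPM against 179, 204, 247 and 191. In all 3 the organs did not overlap.

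Genes of mature, migrating dendritic cells were sparse in both organs. Of 14 on the list, 10 did not pass the filter. Samsn1, Ccl17 and Relb were called lower in blood. Ccl17, a chemokine for T cells, stood at 5.01, 0, 0 and 54.7 CPM in blood and 109, 16, 63.8 and 109 in heart. Ccr7, the receptor that guides dendritic cells to lymph nodes, was not tested, at 20.1, 0, 2.84 and 0 CPM in blood and 38.6, 47.9, 0 and 81.9 in heart. Ccl17 had at most 7 UMIs in any blood sum and passed the filter through its heart sums. Relb was lost as a call without either control mouse.

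Of 10 MHC class II presentation genes tested outside the gate, 3 were lower in blood and none higher, with a median log2 fold change of -0.33. H2-Eb1, a class II beta chain, stood at 3645, 4363, 2506 and 6658 CPM in blood and 6849, 6486, 4761 and 6743 in heart. It was lower in blood in 4 of 4 mice, though the organs overlapped through stroke replicate 2 (log2 fold change -0.68, SE 0.17, edgeR adjusted p = 0.00928). H2-Oa and H2-DMb2, which modulate and edit peptide loading, were lower in blood in 3 of 4 mice each, and stroke replicate 2 was the exception. These calls were lost without control replicate 1 and with DESeq2, that of H2-Eb1 also without stroke replicate 1 and that of H2-DMb2 also without control replicate 2.

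Of 21 type 2 dendritic genes tested, 4 (Tnip3, Mgl2, Relb and Cebpb) were lower in blood, beside 5.02% of all genes, and none was higher. The median log2 fold change was -0.27. Mgl2 stood at 105, 42.1, 5.68 and 586 CPM in blood and 280, 395, 343 and 191 in heart. It was lower in blood in 3 mice and higher in stroke replicate 2 (log2 fold change -1.91, SE 0.40, edgeR adjusted p = 0.000769), and the call was lost without control replicate 2, with DESeq2 (adjusted p = 0.884) and without the mouse block (adjusted p = 0.457). Tnip3, an NF-kB inhibitor induced by stimulation, stood at 77.7, 9.90, 22.7 and 188 CPM against 519, 579, 239 and 328. Cebpb was lost as a call without control replicate 2 or stroke replicate 1, and Cebpb and Relb were lost with DESeq2.

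Zbtb46 and Tmem176b were not called. Zbtb46 stood at 75.2, 49.5, 56.8 and 93.8 CPM in blood and 109, 71.9, 47.8 and 81.9 in heart, and Tmem176b at 559, 612, 503 and 508 against 601, 571, 638 and 464. Among 11 common dendritic genes tested, Itgax, the CD11c integrin, was the only call, lower in blood in 3 of 4 mice. It was lost without control replicate 1, control replicate 2 or stroke replicate 1, and with DESeq2.

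Of 9 classical monocyte genes tested, F13a1, Plac8, Lyz2, Ly6c2 and Ccr2 were higher, with a list median of 0.60 and none lower. Over all genes tested, 1.03% were higher in blood. In nonclassical monocyte-like cells, 5 of 11 genes of this list were also higher in blood and 0 lower, with a median of 0.43. Lyz2, lysozyme of myeloid cells, stood at 9077, 7678, 6705 and 2712 CPM in blood and 4754, 3630, 6483 and 1365 in heart (log2 fold change 0.69, SE 0.18, edgeR adjusted p = 0.0115). Plac8 stood at 1106, 1451, 1997 and 195 CPM against 418, 711, 1260 and 218, and stroke replicate 2 alone was not higher in blood. F13a1 stood at 742, 270, 412 and 0 CPM against 205, 136, 191 and 0. All 5 calls were lost without control replicate 1 and without the mouse block (adjusted p from 0.195 to 0.644), and those of F13a1, Plac8, Lyz2 and Ly6c2 with a gate of at least 2 UMIs (0.192 to 0.529). The calls of Lyz2 and Ly6c2 were also lost without control replicate 2, and that of Lyz2 without stroke replicate 2.

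Ccr2, the monocyte chemokine receptor, was called higher in blood. It stood at 1216, 569, 744 and 750 CPM in blood and 603, 467, 455 and 491 in heart (log2 fold change 0.60, SE 0.18, edgeR adjusted p = 0.0376), but it was lost as a call without control replicate 1, stroke replicate 1 or stroke replicate 2. Of 12 trafficking genes tested, 9 were not called, among them Klf2, Itga4, Selplg and Cx3cr1.

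Txnip, an inhibitor of thioredoxin and of glucose uptake, was among the most different genes higher in blood. It stood at 416, 413, 420 and 234 CPM in blood and 111, 95.9, 39.9 and 54.6 in heart, with no overlap (log2 fold change 2.16, SE 0.26, edgeR adjusted p = 1.44e-08). Rsrp1, an arginine- and serine-rich protein, stood at 489, 513, 608 and 430 CPM against 179, 316, 183 and 164. F630028O10Rik, annotated as antisense RNA on the X chromosome, stood at 97.8, 149, 122 and 54.7 CPM against 33.8, 12, 7.97 and 0. Rab31, a regulator of vesicle traffic, stood at 130, 106, 88.1 and 117 CPM against 60.3, 28.0, 31.9 and 54.6. The organs did not overlap in any of these genes, and the call of Rab31 was lost without control replicate 2 and with DESeq2.

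Of 15 type I interferon genes tested, 2 were higher in blood, and the fold changes of all 15 were positive, with a median of 0.53. In nonclassical monocyte-like cells, 8 of 20 genes of this list were higher in blood and 0 lower, with a median of 0.43. Ly6e, which restricts viral entry, stood at 579, 716, 844 and 430 CPM in blood and 389, 391, 526 and 191 in heart (log2 fold change 0.68, SE 0.19, edgeR adjusted p = 0.0217). Ifi209, a nucleic acid sensor of the PYHIN family, stood at 191, 208, 310 and 172 CPM against 62.7, 116, 199 and 54.6. Both were higher in blood in 4 of 4 mice, though the organs overlapped.

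The count of 264 calls was 133 without control replicate 1, 171 without control replicate 2, 358 without stroke replicate 2 and 149 with DESeq2. All 27 immediate early, NF-kB and costimulation genes called here kept their call under every alternative that gave them a value, whereas 22 of the 61 named genes lost it under at least 1.

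The organ difference was set beside that of nonclassical monocyte-like cells of the same libraries, which were gated on other genes and allowed at most 1 UMI of Cd209a, Flt3 and Clec10a. In those cells 650 of 6275 genes were called (10.4%), 444 lower in blood (7.08%) and 206 higher (3.28%). Of the 219 genes lower in blood in the dendritic gate, 151 (68.9%) were also called lower in nonclassical cells, and these were 46.9% of the 322 genes called there that were tested in both. Of the 45 genes higher in blood, 21 (46.7%) were shared, 13.6% of 154. No gene was called in opposite directions. Both classes came from the same mice and libraries.

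A test of the difference between the classes, in a fit of all 16 sums, called 24 genes (0.382%), 16 with a more negative and 8 with a more positive blood minus heart value in the dendritic gate. Dennd4a, an exchange factor of Rab10, stood at 201, 240, 335 and 422 CPM in blood and 1706, 1594, 1412 and 1638 in heart dendritic cells, against 210, 297, 417 and 230 and 678, 596, 644 and 818 in nonclassical cells. The log2 fold changes were -2.59 and -1.32, and their difference was -1.27 (SE 0.24, edgeR adjusted p = 0.00355). Socs3, an inhibitor of cytokine signalling, had log2 fold changes of -3.60 and -1.48 (difference of -2.12, SE 0.35, edgeR adjusted p = 0.000577). Arih1, a ubiquitin ligase, stood at 143, 178, 139 and 156 CPM in blood and 509, 571, 463 and 491 in heart dendritic cells, against 197 to 258 and 249 to 322 CPM in nonclassical cells.

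Among the 16 immediate early genes, all were lower in blood in nonclassical cells, with a median of -3.54, and only Nr4a1 differed between the classes. Nr4a1, which nonclassical monocytes need to develop, stood at 358, 270, 228 and 239 CPM in their blood cells and 1223, 965, 912 and 931 in their heart cells. Its log2 fold change was -1.99 there and -3.63 in the dendritic gate in this fit (difference -1.63, SE 0.30, edgeR adjusted p = 0.00227). Id2, an inhibitor of helix-loop-helix factors that dendritic cells use, was 186, 114, 108 and 305 CPM in blood and 169, 112, 47.8 and 54.6 in heart dendritic cells, against 35.6 to 139 and 149 to 298 CPM in nonclassical cells. Its log2 fold changes were 0.34 and -1.57, and the difference was 1.91 (SE 0.32, edgeR adjusted p = 0.000577). Leaving out a mouse gave 12 calls without control replicate 1, 15 without control replicate 2, 14 without stroke replicate 1 and 37 without stroke replicate 2.

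**Figure D5:**
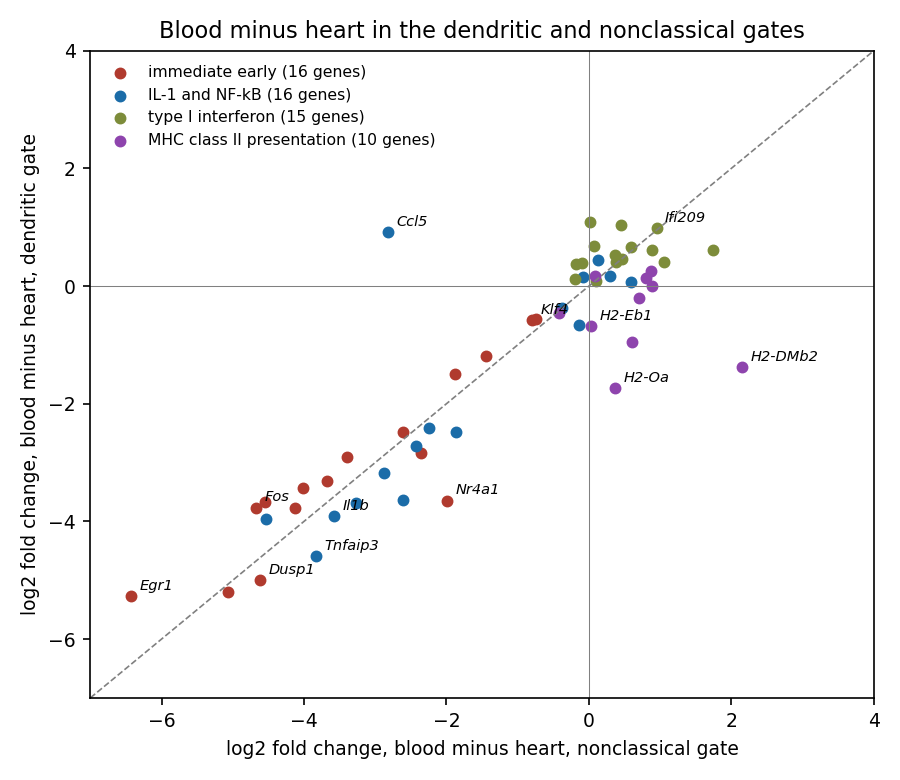
Log2 fold change of blood minus heart for genes of 4 lists, in nonclassical monocyte-like cells (horizontal axis) and in the dendritic gate (vertical axis), 1 point per gene, with the dashed line where both are equal. Cxcl2 is left out because of its 1 UMI in blood. Immediate early and NF-kB genes lie low in both classes, and Nr4a1 lies below the line (-1.99 and -3.65).

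Whether the donor difference itself differed between blood and heart was tested as an interaction in 5360 genes. None passed (0%), 309 (5.76%) had an unadjusted edgeR p under 0.05, and DESeq2 called none. The lowest p was that of Tmtc2 (edgeR adjusted p = 0.0628). There were 5 calls without control replicate 1 and 22 without stroke replicate 1.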

How the data were processed

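The deposited values are UMI counts per gene, or per hashtag, and barcode, with no normalization by the authors. Cell Ranger 7.1.0 and mm10 are named in the submitters' processing notes. No other step before deposit is stated. Of 32247 gene identifiers, 32196 were found in GENCODE release M21, the source of coordinates. Promoter sequences are from RefSeq, GRCm38.p6.

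Counts of gated barcodes were summed per mouse and organ. Every sum of the main gate held at least 5 barcodes, the limit set. The gate of at least 5 UMIs kept the heart sum of stroke replicate 2, with 2 barcodes, in the organ and interaction fits. The 2 transgenes were left out, and the 12 gate genes stayed in library sizes but were not tested. CPM is the UMI count scaled to the total of its sum, with no further normalization. Tests used edgeR 4.0.16 (TMM, filterByExpr, quasi-likelihood, Benjamini-Hochberg over all genes tested) in R 4.3.3, with DESeq2 1.42.0 as an alternative. The organ fit had the mouse as a block, since both organs came from the same animals. No doublet caller was run. Barcodes with mixed hashtags were left out, and an alternative left out barcodes far above the median UMIs. Of 25 gene lists with 349 entries, 345 entries were found.

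Monocyte gates used the same filter and exclusions: at least 3 UMIs of Ly6c2, Ccr2 and Vcan, with Ly6c2 present and at most 1 UMI of the nonclassical genes, for classical cells, and at least 3 of Treml4, Ace, Ear2 and Cd300e, with at most 1 of Ly6c2, for nonclassical cells. Both allowed at most 1 UMI of Cd209a, Flt3 and Clec10a. The classical gate fell from 792 to 705 barcodes once those with 3 or more lymphocyte UMIs were left out, a choice made after seeing the data, as was the comparison of organ differences between classes. Neutrophil-like barcodes had 50 or more S100a8 and S100a9 UMIs.

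Named genes were the gate genes and given markers, the 10 lowest p-values between donors, the 12 largest changes per direction among genes called in 4 of 4 mice between organs, and up to 8 members per list by level. Genes of the leading list against monocytes were taken by their separation. The members of the gate and the lists were chosen with earlier results of these data known. The test was checked on simulated counts with 200 changed genes: between donors it recovered 13% at a 2-fold, 97% at a 4-fold and 100% at an 8-fold change, and between organs 50%, 100% and 99%. These hold for well-counted genes with the same spread for every gene and no mouse set apart. Intervals and floors (3 counts) cover counting error only. Some results were left out of the text and are not reported here.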

Additional observations from a re-analysis of the deposited data

Results flagged for a closer look

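Transcripts of the fluorescent protein transgenes were outside every comparison. The kgfp transgene was found in 94.0% of gated blood barcodes of control replicate 1 (47 of 50) and in 0 of 63, 0 of 53 and 0 of 15 of the other mice. The agfp transgene was found in 34 of 50, 49 of 63, 52 of 53 and 13 of 15 gated blood barcodes, at 216, 6361, 7173 and 5283 CPM. Control replicate 1 was thus the mouse with kgfp and with the least agfp.

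The blood minus heart difference differed between the dendritic gate and nonclassical monocyte-like cells in 24 genes by the test of the difference itself. Beside those named above they included Elmsan1 and Etv3, with log2 fold changes of -1.73 and -3.09 in the dendritic gate and 0.44 and -0.85 in nonclassical cells. Ccl5 was the gene with the lowest p, at 153, 441, 2.84 and 7.81 CPM in blood and 72.4, 244, 0 and 0 in heart dendritic cells. A single blood barcode held 91.8% of its UMIs in control replicate 1 and 60.1% in control replicate 2. In nonclassical cells it had 4, 1, 5 and 1 UMIs in blood and 3, 8, 84 and 0 in heart. Its call thus rested on few barcodes and, in nonclassical cells, on the heart of stroke replicate 1.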

How the results depend on the processing

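Between donors, where no gene was called, the count was 4 without the low-count filter, 1 with DESeq2, 1 with all 8 sums in a single fit and 4 to 180 with a mouse left out. Whether the labels' replicate numbers pair the mice could not be decided here. Deviations from the group mean in control replicate 1 correlated with those of stroke replicate 1 at r = -0.17. With 2 mice per group, the value for stroke replicate 2 (r = 0.17) is fixed as its mirror and adds nothing. With the replicate block 1 gene was called, and with the crossed pairing, added after seeing the data, 7. Between organs, the 264 calls became 163 with a gate of at least 5 UMIs, where stroke replicate 2 had 2 heart barcodes. There were 149 with DESeq2 and 133 to 358 with a mouse left out. Without the mouse as a replicate block there were 177, and 240 without barcodes with 3 or more lymphocyte UMIs. For the interaction the count was 6 at a hashtag share of 95%, 2 with the gate of at least 5 UMIs, 4 without the low-count filter and 0 to 22 with a mouse left out. The class comparison gave 12 to 37 with a mouse left out.

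Shares kept their direction under every alternative tried, from -4.24 to -1.54 percentage points between donors and from 0.376 to 2.54 between organs with a mouse left out. No named gene reversed. Depth limits the heart sums most, with 6 barcodes in stroke replicate 2, and a gene below about 3 UMIs in a sum cannot be told from absent.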

Other observations

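Cell cycle genes were sparse in the gated blood cells. Mki67, a marker of dividing cells, stood at 7.52, 4.95, 2.84 and 15.6 CPM in blood and 82.1, 136, 0 and 0 in heart. Birc5 and Nusap1, which act in mitosis, had no UMI in blood and 45.9, 43.9, 0 and 0 CPM and 21.7, 32.0, 0 and 0 CPM in heart. These 3 genes did not pass the low-count filter and carry no test. Of 4 cell cycle genes tested, Pcna, Tubb5 and Mcm3 were lower in blood by edgeR, each in 4 of 4 mice, and the stroke heart sums rest on 19 and 6 barcodes. Whether the heart values of Mki67, Birc5 and Nusap1 differ between donors was not tested.

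Cholesterol synthesis genes were not called in either comparison. Of 7 tested between organs, 5 had positive log2 fold changes of blood minus heart, with a median of 0.68. Cyp51 stood at 57.7, 109, 125 and 109 CPM in blood and 16.9, 75.9, 79.7 and 54.6 in heart, higher in blood in 4 of 4 mice, with an edgeR adjusted p of 0.164.

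Il12b, a subunit of the cytokines that direct T cell responses, had no UMI in gated blood cells and 83.9 CPM in heart cells of control replicate 2 alone. Cxcl10, a chemokine induced by interferon, stood at 328 CPM in the 6 heart cells of stroke replicate 2 and at 14.5, 20 and 15.9 in the other hearts.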
